A study of Drosophila melanogaster with 2 samples.

Results

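The weaker shared sites are 811 positions on *Drosophila* chromatin at which both replicates of 1 immunoprecipitation placed a candidate peak, although the candidates lay below the authors' reproducibility threshold. The authors name the pooled candidates as peaks and background for the reproducibility procedure, so a candidate is not by itself a called peak. They were chosen by their signal ranks and summit positions: pooled candidate peaks ranked below the 2487 strongest, down to rank 6000 by falling signal, were kept when their summit lay within 100 bp of a summit ranked 1 to 6000 in each replicate and over 500 bp from every thresholded summit. The rule kept 811 of the 3513 candidates in that range of ranks and 811 of the 30000 pooled candidates in all. Signal, rank and summit distance were therefore used in the choice and are given as a description, with no test.

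The chromatin came from whole embryos aged 0 to 12 hours, with males and females pooled, of a transgenic line in which GFP is joined to the C terminus of E(spl)m5-HLH and the fusion is stably expressed. The 2 samples, replicates 3 and 4, share this genotype, and there is no second condition. Sonicated fragments spanned 200 to 800 bp. In the labels, a free-text line names both samples as input controls, but the assay title and the antibody entry name a transcription factor immunoprecipitation, and the values are given on that second reading. Peaks were called against 1 shared control, and no list from an untagged line was used here. Whole embryos mix many cell types, so a site bound in few cells and a site bound weakly in many cannot be told apart. The labels do not say whether the line still carried the untagged gene.

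E(spl)m5-HLH belongs to a family of transcriptional repressors with a basic helix-loop-helix (bHLH) domain, whose genes lie together in the Enhancer of split complex. Notch signalling switches on genes of this complex through the factor Su(H), and their products recruit the corepressor Groucho to limit neural fate. In binding studies, proteins of this family favoured E boxes, which are short bHLH sites, above all the class B form CACGTG, and also related sites such as the class C form CACGCG and the N box CACNAG.

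The sequences at the weaker shared sites are shown first, because site content was not used to choose them. The following stretches come from members that held the E box CACGTG, the class C site CACGCG or the E box CAGCTG within 30 bp of the summit, and show for each the 3 of best pooled rank among those outside UTRs on arms 2L, 3L and 3R and on chromosomes X and 4. Each is printed 5′ to 3′ from the RefSeq genome of the dm6 assembly, on the strand given, with the site in capitals and 20 bases on each side. The class B E box CACGTG was shown by the sites nearest to the start sites of Eip75B, an ecdysone-induced nuclear receptor gene, of CG46458 and of Rsph3:
Eip75B, chr3L:17974201-17974246, plus strand: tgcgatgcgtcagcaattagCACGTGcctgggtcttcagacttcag
CG46458, chr3R:6970733-6970778, plus strand: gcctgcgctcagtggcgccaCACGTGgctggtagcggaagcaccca
Rsph3, chr3L:6767256-6767301, plus strand: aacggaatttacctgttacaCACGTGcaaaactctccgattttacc
The class C site CACGCG was shown by the sites nearest to Usp7, a ubiquitin-specific protease gene, to grn, which encodes a GATA factor, and to laf:
Usp7, chrX:12029061-12029106, plus strand: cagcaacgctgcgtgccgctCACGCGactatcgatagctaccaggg
grn, chr3R:8171338-8171383, minus strand: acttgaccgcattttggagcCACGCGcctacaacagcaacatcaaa
laf, chr3R:4866031-4866076, minus strand: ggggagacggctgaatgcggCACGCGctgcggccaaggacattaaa
The E box CAGCTG is the form bound by proneural activators with their partner Daughterless. It was shown by sites nearest to a non-coding transcript, to the bithorax-complex RNA lncRNA:iab8 (9185 bp away) and to lncRNA:CR43247 (2457 bp away):
FBtr0304360_df_nrg, chr3L:3411186-3411231, plus strand: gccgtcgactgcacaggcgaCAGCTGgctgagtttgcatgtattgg
lncRNA:iab8, chr3R:16882758-16882803, plus strand: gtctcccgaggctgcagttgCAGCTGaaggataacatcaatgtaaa
lncRNA:CR43247, chr3L:15329774-15329819, plus strand: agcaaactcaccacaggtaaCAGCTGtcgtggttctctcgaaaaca

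A second set of stretches shows the other 4 sites that were more frequent at the summits than beside them. The DNA replication-related element TATCGATA, a core-promoter element, lay beside the class C site at Usp7, on the same stretch of the X chromosome as above. It was also shown by the intronic site nearest to CG1677, 7620 bp from the start site, and by a site at CG7006:
Usp7, chrX:12029069-12029116, plus strand: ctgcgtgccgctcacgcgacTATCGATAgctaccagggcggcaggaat
CG1677, chrX:7277214-7277261, plus strand: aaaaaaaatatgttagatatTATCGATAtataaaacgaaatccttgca
CG7006, chr3R:24850565-24850612, plus strand: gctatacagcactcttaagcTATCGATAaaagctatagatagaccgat
Motif 1 of core promoters, GGTCACACT, was shown by the sites at Mbs, which encodes the targeting subunit of myosin phosphatase, at Top1, the topoisomerase 1 gene, and at Dpm3. The stretch at Dpm3 also held a CACGTG:
Mbs, chr3L:16051896-16051944, minus strand: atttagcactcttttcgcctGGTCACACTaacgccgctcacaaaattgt
Top1, chrX:15319412-15319460, plus strand: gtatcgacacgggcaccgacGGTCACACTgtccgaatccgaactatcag
Dpm3, chr3R:13403226-13403274, minus strand: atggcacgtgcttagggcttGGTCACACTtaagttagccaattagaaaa
The GAGA site GAGAGAG, the sequence bound by GAGA factor, was shown by the sites at CG43051, at lncRNA:CR43928 and at a further non-coding transcript:
CG43051, chr2L:12507741-12507787, plus strand: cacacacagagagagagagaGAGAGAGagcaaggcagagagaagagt
lncRNA:CR43928, chr2L:3476616-3476662, minus strand: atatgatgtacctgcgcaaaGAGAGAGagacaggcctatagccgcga
FBtr0472779_df_nrg, chr2L:12459989-12460035, plus strand: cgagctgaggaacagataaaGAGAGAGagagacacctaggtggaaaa
The repeat ACACACAC was shown by sites nearest to Tsp96F, a tetraspanin gene, to CG32813 and to tko (4218 bp away), a mitochondrial ribosomal protein gene:
Tsp96F, chr3R:25880308-25880355, minus strand: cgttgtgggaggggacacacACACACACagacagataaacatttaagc
CG32813, chrX:1387293-1387340, minus strand: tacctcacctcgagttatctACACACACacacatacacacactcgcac
tko, chrX:2439737-2439784, minus strand: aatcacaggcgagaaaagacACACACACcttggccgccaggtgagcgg

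Windows reaching 100 bp to each side of the 811 summits held E boxes of the CAGCTG form, class C sites and class B E boxes more often than windows in their own flanks. CAGCTG was present in 136 summit windows, against 62 windows of the same length centred 500 bp to 1 side, or 16.8% against 7.64% (two-sided exact McNemar test, adjusted p = 8.92e-07 over 26 motifs). CACGCG was present in 73 summit windows, or 9.0%, against 32 flank windows, or 3.95% (exact test, adjusted p = 0.00048). CACGTG was present in 38 summit windows, or 4.69%, against 19 flank windows, or 2.34% (exact test, adjusted p = 0.0411). The N box CACNAG did not pass the test, with 21.8% of summit windows and 22.1% of flank windows holding it (exact test, adjusted p = 1). The CACGTG call, at a difference of 2.34 percentage points, was lost with no change of sign under 7 alternatives. Among them were summits shared within 50 bp (1.53), members over 1000 bp from thresholded summits (2.14) and candidates without the sharing condition of replicate 4 (1.18). The call was also lost among the 147 sites of pooled rank beyond 4000, where the difference turned (−0.68). Among those 147, and among the 235 sites left with replicate ranks to 4000, 0 of the 26 motifs were called by the same exact tests. The differences behind these lost calls did not all shrink: CAGCTG, at 9.12 percentage points over the 811 sites, was 10.2 in the 147 and 3.83 in the 235, and CACGCG, at 5.06, was 2.72 and 6.81.

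Of the 26 motifs, 8 were higher at the summits, or 30.8% of those tested, and 0 were lower, or 0% (two-sided exact McNemar tests). The 8 were 7 of the 18 sites and 1 of the 8 control palindromes, GACGTC, found in 3.45% of summit windows and 1.23% of flank windows (exact test, adjusted p = 0.0189), a difference that turned with flanks 1 kb away (−0.12 percentage points). The summit windows were also richer in G and C, at 43.8% against 41.6% in the flanks, and the part of base composition in these differences was not tested. The GAGA site stood in 8.88% of summit windows against 3.82% of flank windows (exact test, adjusted p = 0.000328). The CA repeat stood in 10.4% against 5.30% (exact test, adjusted p = 0.00127), and the DNA replication-related element in 29 summit windows against 6 flank windows (exact test, adjusted p = 0.000759). Motif 1 stood in 18 summit windows against 4 flank windows (exact test, adjusted p = 0.0188). The Su(H) site, searched as CGTGAGAA or CGTGGGAA or, with a first base of T, TGTGAGAA or TGTGGGAA, was held by 12 summit windows and 22 flank windows, and this did not pass the test (exact test, adjusted p = 0.234). Neighbouring sites share sequence and are not independent replicates of one another.

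All motifs were searched on both strands, none of the 26 contained another, and partial overlaps between matches were allowed. The remaining sites were the Snail-type E box CAGGTG, the Twist E box CATATG, the Zelda site CAGGTAG, the TATA core TATAAA, the initiator as TCAGTC or with a final base of T, the GATA site AGATAAG, the Grainyhead site AACCGGTT, the Tramtrack site AGGACC and the Pleiohomeotic-type site GCCATTTT. The remaining control palindromes were CCATGG with GGATCC, then GAGCTC with GCATGC, then CCTAGG with GCTAGC, then CTCGAG. For background, CAGCTG was present in 12.3% of windows of the same length on the 23581 annotated start sites and in 11.4% of those on all 30000 pooled candidates. For CACGCG these shares were 6.11% and 6.13%, for CACGTG 2.82% and 3.48%, for TATCGATA 5.45% and 1.61%, and for GGTCACACT 3.71% and 0.987%. For GAGAGAG they were 4.402% and 5.31%, and for ACACACAC 3.66% and 6.54%. A match describes the letters of a window and does not show that a protein binds there.

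**Figure D1:**
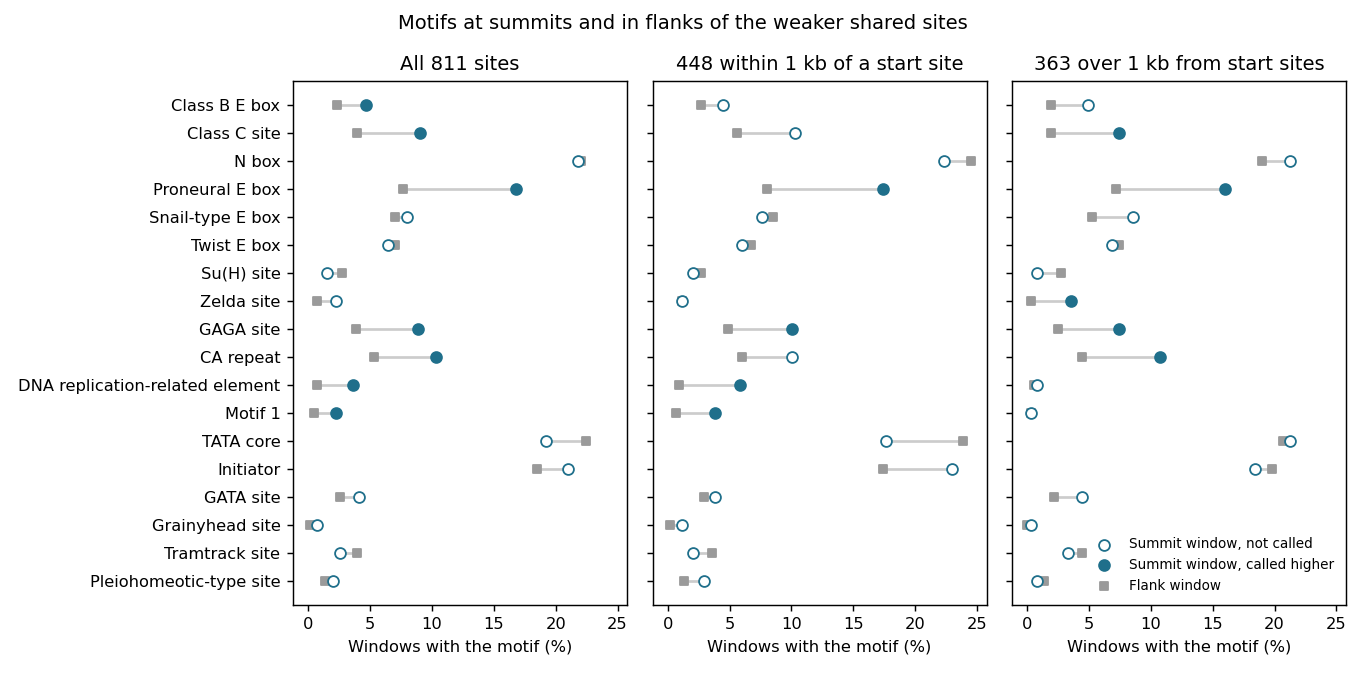
Share of windows, each reaching 100 bp to both sides of its centre, that held each of 18 sites, in percent, for all 811 weaker shared sites and for those within or over 1 kb of a start site; circles are summit windows (filled where called higher by exact McNemar tests, adjusted over 26 motifs) and squares are flank windows. The proneural E box, at 16.8% against 7.64% over all sites, lies to the right of its flank in all 3 panels, and the DNA replication-related element does so chiefly near start sites.

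Between summit windows near start sites and those further away, only TATCGATA and Motif 1 of the 26 motifs differed past the threshold. The tests between near and away windows were not among the planned comparisons. TATCGATA was found in 26 of the 448 summit windows within 1 kb of an annotated start site, or 5.80%, against 3 of the 363 further away, or 0.826% (two-sided Fisher's exact test, adjusted p = 0.0021). Motif 1 was found in 3.79% of the near windows against 0.275% of the away windows (exact test, adjusted p = 0.00561). Windows on all 23581 annotated start sites held TATCGATA in 5.45% and Motif 1 in 3.71%. The near shares thus stood close to those of start sites at large and are not particular to the weaker shared sites. The E boxes did not pass the test between near and away windows, with CAGCTG in 17.4% of near and 15.98% of away windows and CACGTG in 4.46% and 4.96%. Among the 363 away sites alone, the class C site stood in 7.44% of summit windows against 1.93% of flank windows (exact McNemar test, adjusted p = 0.0107). Among the 448 near sites it stood in 10.3% against 5.58% and missed the threshold (exact test, adjusted p = 0.0725), and near and away summit windows did not differ past the threshold (exact test, adjusted p = 0.575). Among the away sites CAGGTAG, the site of the early embryonic activator Zelda, stood in 13 summit windows against 1 flank window (exact test, adjusted p = 0.0142), whereas over all 811 sites it stood in 18 against 6 and missed the threshold (exact test, adjusted p = 0.0655). Whether CAGGTAG differed between near and away sites did not pass the test, at 1.12% against 3.58% (exact test, adjusted p = 0.245).

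All 2080 hexamers, with both strands joined, were compared in the same way, and 37 were higher at the summits, or 1.78%, and 19 were lower, or 0.913%. Among those past the threshold, the highest ratios of summit to flank windows were those of CTAGAC at 3.75, GGCGCC at 2.61, CGATAG at 2.56, ACACTG at 2.50 and GCGCGC at 2.44. ACACTG stood in 135 summit windows against 54 flank windows (exact McNemar test, adjusted p = 1.8e-07), and CGATAG in 82 against 32 (exact test, adjusted p = 0.000237). Among the 235 sites left with replicate ranks to 4000 and the 147 of pooled rank beyond 4000, 0 hexamers were called in either direction. CGATAG shares letters with the DNA replication-related element. The lowest ratios were those of AGATCT at 0.343, CCAGGA at 0.403, AAGGAT at 0.446, ATTAGC at 0.459 and GAAGGA at 0.528.

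No motif passed the threshold between the weaker shared sites and either the candidates of the same range of ranks that were not shared by both replicates or the thresholded peaks. Against the 2588 unshared candidates, 0 motifs were called by two-sided Fisher's exact tests and 2 had an unadjusted p under 0.05, CAGCTG at 16.8% against 13.6% and ACACACAC at 10.4% against 7.73%. Of those 2588, 1173 were shared with replicate 4 alone, 1046 with replicate 3 alone and 369 with neither. Against the 369 shared with neither, 1 motif was called by the same tests. CAGCTG stood in 8.40% of the windows of those 369. Against the 2487 thresholded peaks, 0 were called by Fisher's exact tests and 2 had an unadjusted p under 0.05, CACNAG at 21.8% against 26.3% and CATATG at 6.41% against 8.85%. For CACGTG the difference was 0.94 percentage points from the unshared candidates (95% interval −0.55 to 2.74) and −1.10 from the thresholded peaks (95% interval −2.70 to 0.78). The 2588 unshared candidates had 11 of 26 motifs higher at summits than in flanks, and the thresholded peaks 13 of 26. Both sets are larger than that of the weaker shared sites. The number of calls depends on set size, so these counts are not compared.

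In signal, the sites filled the range just under the threshold. Their pooled signal, the authors' value per peak, had a lowest value of 70.1, a median of 99.5 and a highest value of 114, against a median of 81.1 in the unshared candidates and 162 in the thresholded peaks. The first limit fell between a signal of 114.327 in the strongest member, nearest to CG15283, and 114.378 at rank 2487, a thresholded peak. At the far limit the signal was 69.6886 at rank 6000 and 69.6753 at the next rank, and the member of lowest rank, near aop, stood at 5946 with a signal of 70.1. In the replicates the limit fell between 40.8213 and 40.8188 for replicate 3 and between 37.0379 and 37.0368 for replicate 4. The largest summit distance of a member was 100 bp to replicate 3 and 99 bp to replicate 4, and the next peaks outside lay just beyond 100 bp in both. The member nearest to a thresholded summit lay 510 bp away, at RpS23, and 16 candidates shared by both replicates were left out at up to 493 bp. The deposited −log10 q value stood at its maximum in 426 of the 811 sites, or 52.5%, against 334 of the 2588 unshared candidates, or 12.9%. All thresholded peaks stood at that maximum. The weaker shared sites also had better pooled ranks than the unshared candidates, at a median of 3236 against 4608.5, so nothing is read from this contrast.

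The share of candidates kept fell steeply along the list, under a rule that counted replicate summits only to rank 6000. That limit bears on the fall, so nothing is read from it. With the limit at 10000 the rule kept 1737 sites in place of 811. Over 500 bp from thresholded summits, the rule kept 664 of 1465 candidates down to rank 4000, or 45.3%, and 147 of 1934 beyond it, or 7.60%. Of the 3399 candidates at that distance, 1173 were shared with replicate 4 alone, 1046 with replicate 3 alone and 369 with neither.

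Within the set, the replicate ranks were bounded by the rule, which kept ranks to 6000 in each replicate and pooled ranks below the thresholded peaks. The ranks ran between 1079 and 5978 in replicate 3, with a median of 3861, and between 1166 and 5993 in replicate 4, with a median of 3817. A site ranked better in replicate 4 in 424 cases and in replicate 3 in 387. Of the 811, 5 sites stood at rank 2487 or better in both replicates, 194 did so in 1 replicate and 612 in neither. The replicate summits lay a median of 39 bp apart, and 245 pairs lay within 20 bp. The largest distance between them was 197 bp.

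**Figure D2:**
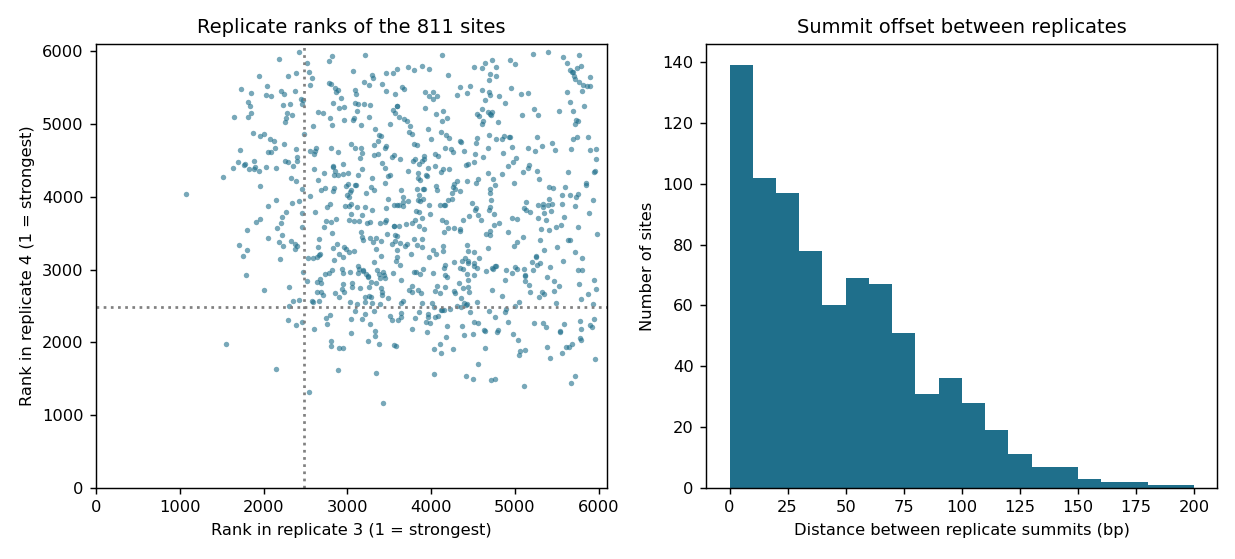
Left, rank of each of the 811 sites in replicate 3 (horizontal) and replicate 4 (vertical), with dotted lines at rank 2487. Right, number of sites by distance in bp between the replicate summits, in bins of 10 bp. The rule used these ranks; 5 sites lie below both lines, and the median distance is 39 bp.

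Ordered by the worse of their replicate ranks, the first of the sites was at dap, which encodes a cyclin-dependent kinase inhibitor of the p21 and p27 type. Its summit lay in an intron on chromosome 2R at position 9714768, 2447 bp downstream of the start site, with rank 1551 in replicate 3 and 1974 in replicate 4 and a signal of 80.7 and 66.9. Its worse rank, 1974, was the best of all 811. Next came sites near lncRNA:CR44588 (ranks 2150 and 1637) and CG7656 (ranks 2297 and 2313), in replicates 3 and 4. The others among these 10 were nearest to lncRNA:CR43785, lncRNA:CR43822, Wnt2, CG32182, loco, hth and cic. Wnt2 encodes a Wnt ligand, loco a regulator of G-protein signalling used in glia, hth a homeodomain partner of Hox proteins, and cic an HMG-box repressor that receptor tyrosine kinases inactivate. Their ranks lay between 2303 and 2584 in replicate 3 and between 1316 and 2583 in replicate 4, so both replicates placed these 7 near rank 2487, the number of thresholded peaks, or above it.

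The 20 sites of highest pooled signal had signals of 113 to 114 and were nearest to genes of mixed roles. Promoter summits among them lay 26 bp downstream of the start of pk, a planar polarity gene, 22 bp downstream of that of Hr78, a nuclear receptor gene, and 71 bp downstream of that of Sirt1, which encodes a protein deacetylase. The summit at Alh, which encodes a chromatin-associated protein, lay 1 bp from the start site, and that at Fkbp12, which encodes the FK506-binding protein, 21 bp upstream. Summits in introns lay 1677 bp downstream of the start of loco and 27.2 kb downstream of that of Tet, a dioxygenase gene. The ranks of single sites differed by replicate. The Alh site ranked 4494 in replicate 3 and 1492 in replicate 4, and the Hr78 site ranked 1887 and 4383. The other 13 were nearest to CG15283, dap, CG8519, CG43693, psq, CG13894, Tsp96F, SA2, Mos, lncRNA:CR43334, lig, mgl and oxt. Of these, psq encodes a BTB protein that binds GAGA sequences, SA2 a cohesin subunit and mgl the endocytic receptor Megalin.

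Some genes were the nearest to several sites, a count that was made after the values had been seen. hth was nearest to 5, at pooled ranks of 2603, 3494, 3553, 3746 and 4644, and ths, which encodes an FGF ligand of the mesoderm, to 4, at ranks 2676, 3393, 3451 and 3487. cic, sog, the gene of an antagonist of BMP signalling, and lncRNA:CR43337 were nearest to 3 each. The hth summits ran between 50 bp and 47.1 kb from their nearest start sites. Within 5 kb of its own start sites, CG8468 had 4 such summits, and CG12237, CG14434, CkIalpha, a casein kinase gene, and Rcd-1 had 3 each, as did RpS23, Sec61gamma, aop, hth and px. CG12237, Rcd-1 and Sec61gamma counted the same 3 summits on the X chromosome. CG8468 and RpS23 had the same first summit, at 2R position 14214943, and the stretch counted for RpS23 lay inside that of CG8468. Of the 811 sites, 118 had another within 5 kb and 24 within 1 kb.

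Most of the sites lay within 1 kb of a start site, though a smaller share of them did than of the thresholded peaks. Their summits were within 1 kb of an annotated start site in 448 of 811 cases, or 55.2% (95% interval 51.8 to 58.6, Wilson), against 58.2% of the unshared candidates and 60.2% of the thresholded peaks. The difference from the thresholded peaks was −4.99 percentage points (95% interval −8.92 to −1.09, two-sided Fisher's exact test, adjusted p = 0.0492 over 5 comparisons, of which the one on distance to thresholded summits is given only as values). That from the unshared candidates was −2.91 percentage points and did not pass the test (95% interval −6.84 to 0.98, exact test, adjusted p = 0.257). The unshared candidates lay lower in the list, at a median pooled rank of 4608.5 against 3236. Down to pooled rank 4000 the shares were 56.8% and 62.4% (−5.64, exact test, adjusted p = 0.0805). Beyond it they were 48.3% and 56.2% (−7.94, exact test, adjusted p = 0.174). Neither passed the test, and both differences were larger than that over the whole range. The call against the thresholded peaks was lost under 6 alternative settings. Among them were summits shared within 50 bp (−4.87) or 200 bp (−4.20), and sharing required with only 1 of the replicates. Within the set, 243 of the 405 sites of better pooled rank lay within 1 kb, or 60%, against 205 of the other 406, or 50.5%.

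The sites near start sites lay upstream of them less often than the thresholded peaks. Of the 448, 250 were upstream, or 55.8%, against 972 of 1498 thresholded summits, or 64.9%, a difference of −9.08 percentage points (95% interval −14.3 to −3.93, two-sided Fisher's exact test, adjusted p = 0.0011 over 2 comparisons). This comparison was added after the values had been seen, and its call was lost with replicate ranks to 4000 (−7.85) and at pooled ranks beyond 4000 (−8.55). The unshared candidates had 57.3% upstream, which did not pass the test (difference −1.54, 95% interval −6.79 to 3.64, exact test, adjusted p = 0.587). That value depended on the replicate: the difference was −9.66 without the sharing condition of replicate 3 and 6.18 without that of replicate 4, both past the threshold. The weaker shared sites, at 55.8%, stood between the candidates shared with replicate 3 alone, at 62.7% upstream, and those shared with replicate 4 alone, at 51.0%. G and C content moved in the opposite order, at 43.8% in the weaker shared sites, 40.8% in candidates shared with replicate 3 alone and 45.1% in those shared with replicate 4 alone. Its part in the upstream share was not tested.

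**Figure D3:**
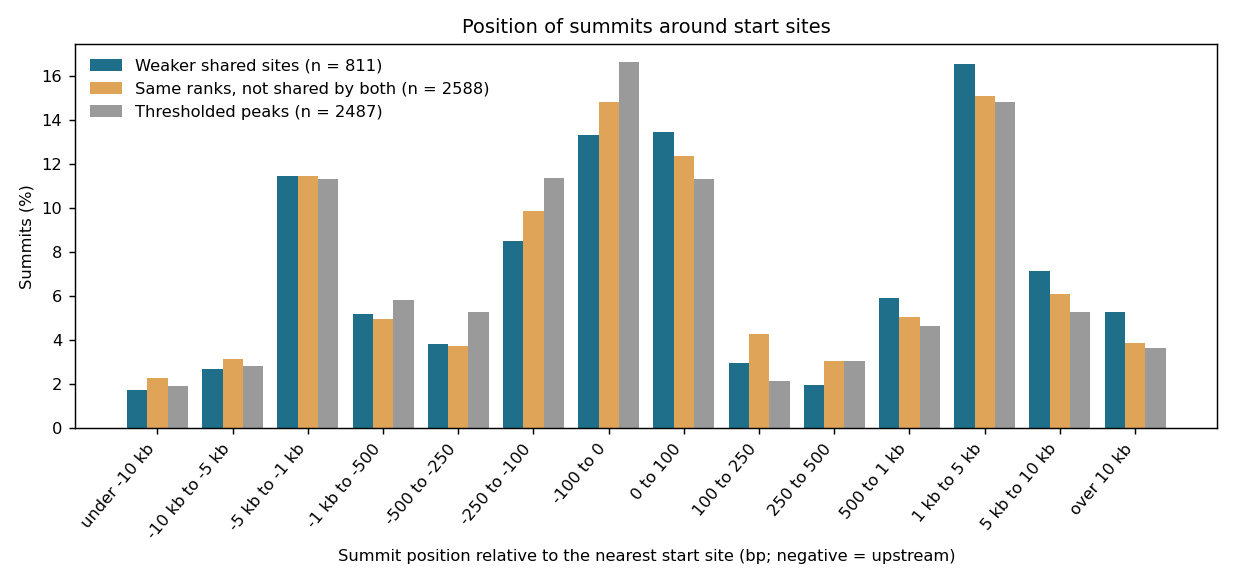
Percent of summits in bins of position relative to the nearest start site, negative upstream, for the 811 weaker shared sites, the 2588 unshared candidates of the same range of ranks and the 2487 thresholded peaks. Between 100 bp upstream and the start site the weaker shared sites hold 13.3% and the thresholded peaks 16.6%.

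Of the 811 sites, 43.8% lay in introns, 31.2% between genes, 18.4% in 5′ UTRs, 3.70% in other exons, 1.60% in 3′ UTRs and 1.36% in coding exons. None of these 6 classes, and none of the 4 biotypes of the nearest gene, differed past the threshold from the unshared candidates or the thresholded peaks by two-sided Fisher's exact tests, and 0 had an unadjusted p under 0.05. The largest of these differences from the thresholded peaks was that of intergenic summits, at 31.2% against 34.6% (−3.38 percentage points, unadjusted exact p = 0.0796). Only 57 sites, or 7.03%, lay over 10 kb from any start site, and 217, or 26.8%, lay within 100 bp of one.

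By chromosome, the sites were densest on chromosome 4, with 11 sites at 8.16 per Mb, and on arm 2L, at 7.31 per Mb. The densities on 3L, 2R, 3R and X were 6.19, 5.97, 5.49 and 5.39 per Mb. X held 127 of the 800 sites on the 5 large arms, or 15.9%, against 12.6% of the thresholded peaks (difference 3.30 percentage points, 95% interval 0.57 to 6.27, two-sided Fisher's exact test, adjusted p = 0.0492). It held 14.7% of the unshared candidates, and that difference did not pass the test (1.17, 95% interval −1.59 to 4.17, exact test, adjusted p = 0.534). The call against the thresholded peaks was lost under 6 alternative settings, such as joining summits within 500 bp (3.08).

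**Figure D4:**
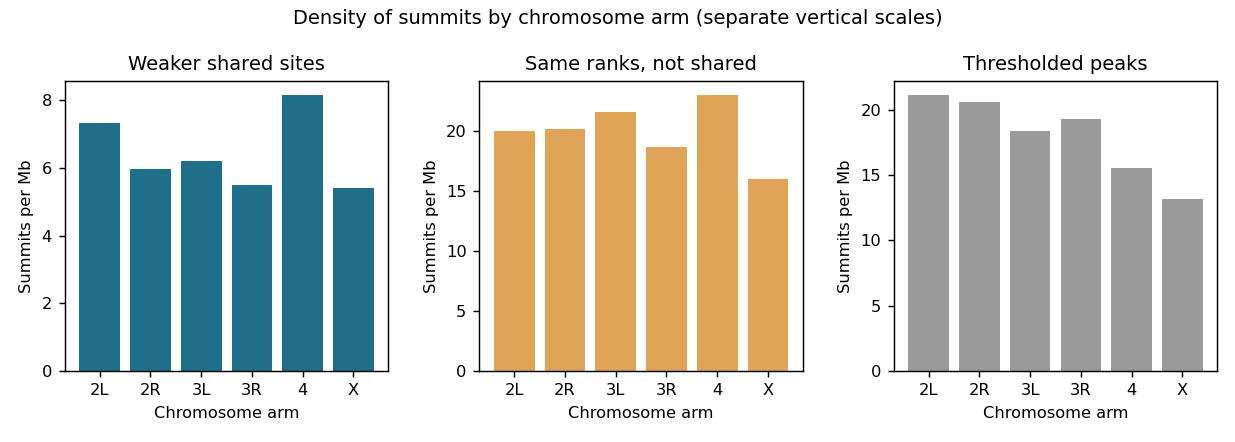
Summits per Mb by chromosome arm for the 811 weaker shared sites, the unshared candidates and the thresholded peaks, each on its own vertical scale. The weaker shared sites reach 8.16 per Mb on chromosome 4, from 11 sites, and 5.39 on X.

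Distance to the thresholded peaks was part of the rule, and both the weaker shared sites and the unshared candidates lay over 500 bp from them. A thresholded summit lay within 5 kb of 310 of the 811, or 38.2%, against 37.8% of the unshared candidates, and the median distance to one was 8135 bp. None of the 811 summits fell in the Enhancer of split complex or within 1 kb of it.

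A summit of the set lay within 1 kb of a start site of 543 of 13945 protein-coding genes, or 3.89%, with a median pooled rank of 3131 for those genes. Of these genes, 452, or 83.2%, had no thresholded summit within 1 kb, and 91, or 16.8%, had one. Over all 13945 genes, 1653, or 11.9%, had a thresholded summit within 1 kb. The rule left out sites within 500 bp of thresholded summits, so nothing is read from the absence of one at a gene named here. The lists below are described by their counts beside 3.89%, with no test.

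In the Notch pathway list, 2 of 20 genes (median pooled rank 3169.5) carried such a site, fng and mib1, and neither had a thresholded summit. fng encodes the glycosyltransferase that modifies Notch, and its summit lay 72 bp upstream of the start site, at 3L position 20949584, with pooled signal 102 and ranks of 4890 in replicate 3 and 2990 in replicate 4. mib1 encodes a ubiquitin ligase for Notch ligands, and its summit lay 389 bp downstream, in a coding exon, with pooled signal 99.2 and ranks of 2032 and 5404. The Enhancer of split complex had 0 of 13 genes with a weaker shared site and 12 of 13 with a thresholded summit, and the Hairy-related genes outside the complex had 0 of 6. Among proneural and related HLH genes, 1 of 10 carried a site, da, which encodes the partner Daughterless (79 bp upstream, pooled signal 87.0, ranks 4561 and 4248). Among sensory precursor genes it was sca, the gene of a secreted regulator of neural spacing (526 bp upstream, pooled signal 90.0, ranks 5334 and 3857), and among 25 neuroblast and neuroectoderm genes Dr, a homeobox gene (89 bp upstream, pooled signal 109, ranks 2659 and 2567). The neural lists thus had 1 gene each with such a site, and no thresholded summit stood at any of these 3 genes.

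Patterning lists had 1 to 3 genes each. In the EGF receptor list, 3 of 17 genes carried a site, with a median pooled rank of 3129. They were spi, which encodes the ligand Spitz, aop, which encodes the ETS repressor Yan, and S, which encodes Star, needed for the trafficking of Spitz. spi and aop also had thresholded summits, at ranks 263 and 1333, and S had none. The segment polarity list had arm, the beta-catenin gene, 20 bp downstream of its start, and wg, the Wnt ligand, 143 bp upstream (2 of 16). The gap and pair-rule list had cad and oc (2 of 20), with summits 162 and 379 bp upstream, both homeobox genes. Mad, a signal transducer of BMP ligands, and dpp, such a ligand, were 2 of 22 in the dorsoventral and mesoderm list, and Mad had a thresholded summit at rank 239. Abd-B was 1 of 8 Hox genes, with a summit 69 bp upstream at pooled rank 4910, and 0 Hox genes had a thresholded summit.

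Chromatin, glial and cell cycle lists also held a few. Psc and phol were 2 of 14 Polycomb group genes and psq and ash2 2 of 15 Trithorax group genes, all 4 without a thresholded summit. The second psq site lay 102 bp upstream of a start site, at pooled rank 3130, apart from the one at rank 2499. The nearest start site to the ash2 summit was that of puf, not of ash2. loco was 1 of 8 glial genes, with a summit 542 bp upstream at pooled rank 3089. Dp, the gene of the E2F partner, and Cdk4 were 2 of 20 cell cycle genes, and Dp also had a thresholded summit at rank 1504.

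Housekeeping lists varied. Of 92 cytoplasmic ribosomal protein genes 8 carried a site, or 8.70%, against 66 of 92, or 71.7%, with a thresholded summit, and the median pooled rank of the 8 was 3532. RpS23 and RpS12 had both, while RpL10 (11 bp downstream), RpS13, RpS5b, RpL15, RpS3 and RpL7-like had only the weaker shared one. Translation factors had 6 of 52 (median pooled rank 3339), led by eEF1delta, eIF4G2 and eIF3f1, with summits 92 bp upstream, 895 bp downstream and 62 bp upstream. Proteasome genes had 3 of 48 (median pooled rank 2900), Prosbeta1, Rpn9 and Prosalpha3, and 1 of 48 had a thresholded summit. Mitochondrial ribosomal protein genes had 1 of 73, mRpS6, and vacuolar proton pump genes 1 of 33, Vha100-2. Splicing factors had 2 of 39, Sf3b2 and LSm7, and chaperones 2 of 17, Hsc70-4 and Hsp23. For RpL7-like, RpS12, RpL15, mRpS6, eIF4G2, Prosbeta1, Rpn9 and Sf3b2 another gene had the nearer start site, so these summits are uncertain as to gene.

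Actin and tubulin genes had 2 of 16, gammaTub23C, where Rrp1 had the nearer start site, and Act42A, and epithelial junction genes 2 of 18, arm and crb. The crb summit, at the gene of an apical polarity protein, lay 2 bp downstream of the start site, with ranks of 2605 in replicate 3 and 2176 in replicate 4. Muscle structural genes had 3 of 15, Msp300, sls and Tm1, at pooled ranks 3579, 3881 and 3895 (median 3881), against 1 of 15 with a thresholded summit. ND-13A had the nearer start site at the Msp300 summit. Among genes of restricted late expression, 1 of 119 odorant and gustatory receptor genes carried a site, Or88a, whose nearer neighbour was CG12402. The counts were 0 of 16 eggshell, 0 of 7 yolk and larval serum and 0 of 95 cuticle protein genes. The 95% Wilson intervals reached 19.4% for the 16 eggshell genes and 35.4% for the 7 yolk and larval serum genes. Nothing is therefore read from these 0 counts in such short lists.

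**Figure D5:**
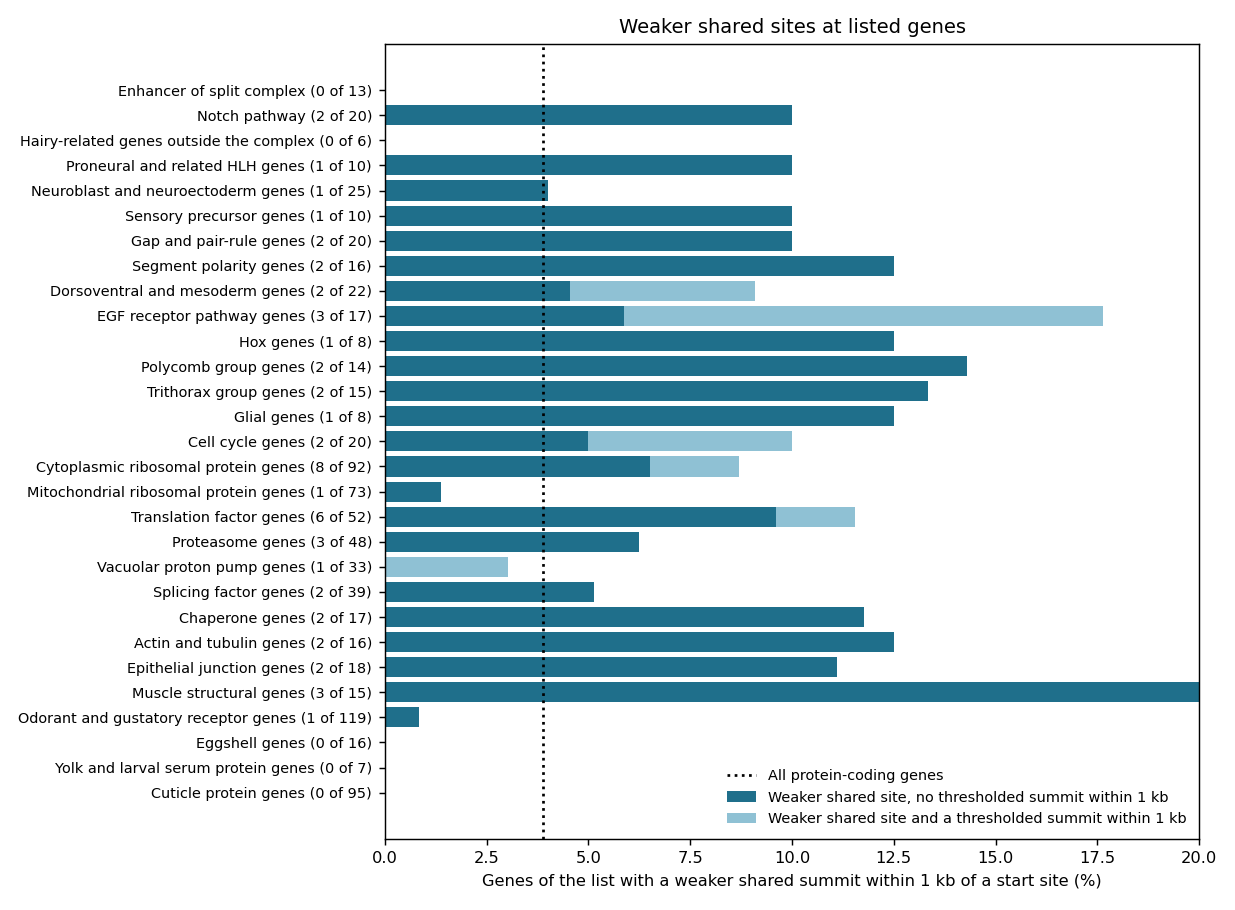
Percent of the genes of each list with a weaker shared summit within 1 kb of a start site, split by whether a thresholded summit also lay within 1 kb; the dotted line marks all protein-coding genes at 3.89% and the counts stand beside each name. Lists of under 30 genes move by over 3 points with each gene, and the muscle list, with the longest bar, rests on 3 of 15 genes.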

How the data were processed

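Chromatin immunoprecipitation of 2 replicates of 1 group was analysed from the peak lists that the authors deposited. The members and lists were chosen with earlier results of these data known. Per the file headers, each list held 1 peak per line on dm6, and the submitters' text files say that candidates were called per replicate and on pooled reads against 1 control alignment, with the thresholded list derived by an irreproducible discovery rate procedure. The signal is the authors' value per peak, used here to rank and filter within a list. The deposited −log10 q values were only counted at their maximum. Neither the labels nor the headers name an aligner, a caller, a threshold or a depth (not given in the sources used here), and intervals cover counting error only. The thresholded list equalled the 2487 pooled candidates of highest signal.

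Summits, given 1-based, were placed on the annotation of Ensembl release 115 and the RefSeq genome, both of the same assembly, with 0 peak ends beyond a chromosome. Start sites of transposable elements were left out, and the biotype called ncRNA in the annotation stood for long non-coding RNA. Each of 29 lists was matched by symbol, 5 symbols being updated by synonym and 3 more after the annotation had been seen. Shares were compared by two-sided Fisher's exact tests and summit with flank windows by exact McNemar tests, with Benjamini-Hochberg adjustment within a family at 0.05 and 95% Wilson or Newcombe intervals. Flank sides were fixed by a seed, and the tests were checked on shifted positions. Ranks 4001 to 6000, the upstream comparison, the candidates split by replicate and the nearest-gene counts were added after the data had been seen. The motif tests between near and away sites and the split of the set by better pooled rank were not among the planned comparisons either. Genes named are those nearest to the 20 sites of highest signal and to the 10 of best worse-replicate rank, up to 3 per list, the 5 with most sites within 5 kb, and the 3 best-ranked sites per motif outside UTRs and arm 2R; all 8 ribosomal protein genes are named besides. Alternatives changed the sharing distance, rank limits, distances, windows, flanks, comparison peaks or the replicates required for sharing. No columns of other samples were in use (0). Computation used Python 3.11.15 with scipy 1.17.1 for the tests, pandas 2.3.3 and numpy 2.4.6 for tables, and matplotlib 3.10.9 for plots.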

Additional observations from a re-analysis of the deposited data

How the results depend on the processing

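With 2 samples in 1 group, the number of sites was 522 when shared within 50 bp, 235 with replicate ranks to 4000, 1737 to 10000, 147 at pooled ranks beyond 4000, and 1857 to 1984 with 1 replicate left out. Leaving a replicate out here dropped only its sharing condition, and the pooled and thresholded lists still came from both replicates. Protein-coding genes with a site numbered 348, 165, 1119, 86 and 1275 to 1292 under the same settings. Motifs higher at summits numbered 0 with replicate ranks to 4000 and at pooled ranks beyond 4000, 5 within 50 bp and away from start sites, and 4 near start sites or in windows of 50 bp to each side. Motifs lower numbered 1 with replicate ranks to 10000 and 1 with either replicate left out. Hexamers higher and lower numbered 16 and 8 within 50 bp, 63 and 38 within 200 bp, 0 and 0 with ranks to 4000 and at pooled ranks beyond 4000, 141 and 142 with ranks to 10000, 23 and 12 at pooled ranks down to 4000, 13 and 6 in windows of 50 bp to each side, 16 and 5 near start sites, 11 and 5 away from them, 60 and 44 with the flank at 1 kb, and 93 to 223 and 96 to 202 with 1 replicate left out. With 1 replicate left out, annotation classes called numbered up to 2 against the unshared candidates and up to 4 against the thresholded peaks (lowest 0), and motifs called 1 to 3 and 1 to 4; with only candidates shared with neither replicate as comparison, 1 motif was called. The share near start sites against thresholded peaks lost its call within 50 bp (−4.87), within 200 bp (−4.20), with ranks to 4000 (−2.79), at pooled ranks down to 4000 (−3.46) and with 1 replicate left out (−3.28 to −2.77). Against unshared candidates it was called with ranks to 10000 (−3.77), and it ran between −1.21 and 0.00042 with 1 replicate left out. It was −5.64 at pooled ranks down to 4000 and −7.94 beyond 4000, both without a call. The X share against thresholded peaks lost its call at 3.48 (pooled ranks down to 4000), 2.50 (pooled ranks beyond 4000), 1.65 (ranks to 4000), 2.75 (within 200 bp), 3.08 (joined summits) and 2.62 without replicate 3, and was 3.42 without replicate 4. Against unshared candidates it was called with ranks to 10000 (2.92) and against those shared with neither replicate (5.13), and turned at ranks to 4000 (−0.82) and pooled ranks down to 4000 (−0.44). Closeness to thresholded summits turned in the same 2 settings (−0.054 and −3.27). The upstream share against thresholded peaks lost its call with ranks to 4000 (−7.85) and at pooled ranks beyond 4000 (−8.55); against unshared candidates it was 0.051 with ranks to 4000 and ran between −9.66 and 6.18 (both called) with 1 replicate left out. Single motifs turned at pooled ranks beyond 4000 (CACGTG −0.68, CAGGTAG −0.68, CACNAG 8.84) and with the flank at 1 kb (GACGTC −0.12). CACNAG, which was never called, also turned with that flank (0.74), the opposite flank (1.23), away from start sites (2.20), over 1000 bp from thresholded summits (0.40), with ranks to 10000 (1.55), within 200 bp (0.93), with joined summits (0.12), in windows of 50 bp to each side (1.97) and, with 1 replicate left out, ran between −1.18 and 2.67. Over all alternatives, for the motifs followed singly, a call was lost with no change of sign in 37 cases and gained in 4. Besides these, the CACGTG call at pooled ranks beyond 4000 and the GACGTC call with the flank at 1 kb were lost with a change of sign. The cause was not tested.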
